A study of Mus musculus with 13 samples.

Results

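The 745 genomic regions described here were called PAD in embryonic stem cells (ESCs) and in neural precursor cells (NPCs), and non-PAD in astrocytes (ACs) and in thymus. A PAD is a pericentromere-associated domain, a stretch of a chromosome arm that is often near the chromocenters. The regions were selected on the deposited calls themselves, so that their pattern of calls is not a finding. An autosomal 4C fragment end was a member if it was PAD in ESCs, PAD in NPCs, non-PAD in ACs and non-PAD in thymus. Consecutive members were merged, with borders midway to the next fragment end of another pattern. This gave 25204 of 374542 autosomal fragment ends (6.73%), and 745 of 7813 regions of any pattern. They spanned 177 Mb, or 7.35% of the 2414 Mb of called autosomal sequence, and formed the fifth most frequent of the 16 possible patterns.

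Satellite 4C (sat4C) was applied to IB10 ESCs (129/ola), to NPCs derived from these ESCs, to ACs derived from the NPCs, and to thymus of adult male C57BL/6 mice. The labels name no genetic change and no treatment other than the derivation of NPCs and ACs, and give no age beyond adult for the thymus. There were 3 replicates of ESCs, 2 of NPCs, 2 of ACs and 3 of thymus, of which the thymus replicates were separate mice. The calls analysed here hold 1 consensus per cell type and no read counts, so that depth is unknown and no error between replicates can be given. ESCs, NPCs and ACs are a single lineage from 1 cell line in culture, whereas thymus is a tissue of another strain with many cell types. Each thymus replicate was sequenced on both an Illumina GAII and a HiSeq, and the other cell types on a HiSeq only. Cell type, strain, culture and sequencing can therefore not be told apart in any contrast with thymus. Each call describes a population, in which more cells with a contact and closer contacts per cell cannot be told apart. No expression was measured in these files, and the labelled cell types were not checked against marker genes.

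In mouse nuclei, the pericentromeric heterochromatin of several chromosomes clusters into chromocenters, which are built on long tandem arrays of the AT-rich major satellite repeat. Chromocenters carry DNA methylation, trimethylated lysine 9 of histone H3 and HP1 proteins, and are known as compartments that are poor in transcription. Sat4C uses the satellite repeat as its viewpoint, and reads out the DNA that was crosslinked to it at the ends of restriction fragments.

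Fragment ends are the units in which the regions were chosen, and the pair on each side of a border shows at which sequences the call changed. The left borders of 3 of the largest regions, those ranked 1, 2 and 4 by size, are shown in mm9 on the plus strand, each from the site at which the end is listed toward the nearest site of the other enzyme, with at most 100 bases. The capitals mark the recognition sites of MfeI and NlaIII.
Chromosome 4, inside, chr4:40338440-40338539: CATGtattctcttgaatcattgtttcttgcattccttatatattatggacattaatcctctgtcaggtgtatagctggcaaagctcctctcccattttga
Chromosome 4, outside, chr4:40332917-40332950: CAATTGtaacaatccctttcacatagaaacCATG
Chromosome 11, inside, chr11:76487882-76487981: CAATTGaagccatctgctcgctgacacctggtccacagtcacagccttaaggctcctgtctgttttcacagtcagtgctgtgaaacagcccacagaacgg
Chromosome 11, outside, chr11:76487168-76487267: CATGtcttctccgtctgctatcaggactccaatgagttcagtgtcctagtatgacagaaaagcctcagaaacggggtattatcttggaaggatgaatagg
Chromosome 7, inside, chr7:27907700-27907785: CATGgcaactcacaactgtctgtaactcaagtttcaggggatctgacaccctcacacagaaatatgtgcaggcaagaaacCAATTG
Chromosome 7, outside, chr7:27895472-27895571: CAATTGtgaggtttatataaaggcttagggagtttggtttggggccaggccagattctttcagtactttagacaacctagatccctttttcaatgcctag
All 3 inside ends were PAD in ESCs and NPCs and non-PAD in ACs and thymus. The outside ends on Chromosomes 4 and 11 were PAD in NPCs alone, and the outside end on Chromosome 7 was PAD in ESCs, NPCs and ACs. The sites of the outside ends lay 2762, 358 and 6115 bp from the border on Chromosomes 4, 11 and 7. Since borders were set midway between ends, these distances reflect the local spacing of ends and not the certainty of the border.

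The regions were mostly short. They had a median length of 130.2 kb (quartiles 52.4 and 300.4 kb), and the median number of fragment ends was 20. The smallest measured 0.105 kb and the largest 3.03 Mb. Of the 745 regions, 33 rested on 1 fragment end and 113 on fewer than 5. In contrast, 25 regions over 1 Mb made up 21.2% of the sequence, and 6 of these were over 2 Mb. Regions PAD in ESCs only were smaller (median 78.1 kb, n = 279), and those PAD in NPCs only were larger (median 244 kb, n = 906). Regions PAD in ESCs, NPCs and ACs had a median of 149 kb (n = 793). Successive regions on a chromosome were a median of 869 kb apart, and 105 of 726 gaps between them (14.5%) were under 100 kb.

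**Figure D1:**
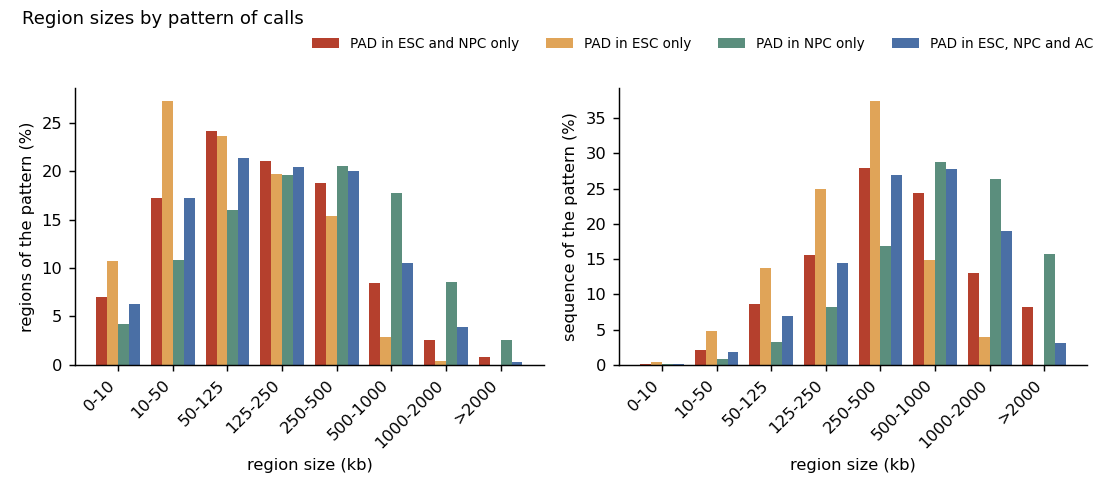
Region sizes in bins of kb for 4 patterns of calls, as the percentage of the regions (left) and of the sequence (right) of each pattern. Of the 745 regions PAD in ESCs and NPCs only, the 140 regions of 250 to 500 kb held 27.9% of the sequence, the highest share of any bin, and the 6 regions over 2 Mb held 8.14%.

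The largest region lay on Chromosome 4 (chr4:40335679-43364066, 3.03 Mb) and held 80 protein-coding genes, of which *Unc13b*, which acts in the priming of synaptic vesicles, *4930578G10Rik*, the phospholipid transporter gene *Atp8b5* and *Ubap2* were the longest. It had 228 fragment ends, and 1132 kb of it were in intervals over 100 kb without any fragment end, so that the call was inferred across more than a megabase of it. Many of its 80 genes are models with Gm names, listed among similarly named genes such as *Ccl21a*, *Ccl21b* and *Ccl21c*. Its gene count therefore depends on the annotation. The second largest lay on Chromosome 11 (chr11:76487526-79231715, 2.74 Mb, 366 ends, 61 genes). It held *Aldoc*, the aldolase of astrocytes and some neurons, the ribosomal protein gene *Rpl23a*, the cofilin phosphatase gene *Ssh2* and *Ksr1*, a scaffold of the MAP kinase cascade. A region on Chromosome 18 (chr18:34328216-36846375, 2.52 Mb, 51 genes) contained *Sil1*, the neuregulin gene *Nrg2*, the alpha-catenin gene *Ctnna1* and *Ankhd1*. These 3 regions ended next to different patterns, as the calls around the first 2 show.

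**Figure D2:**
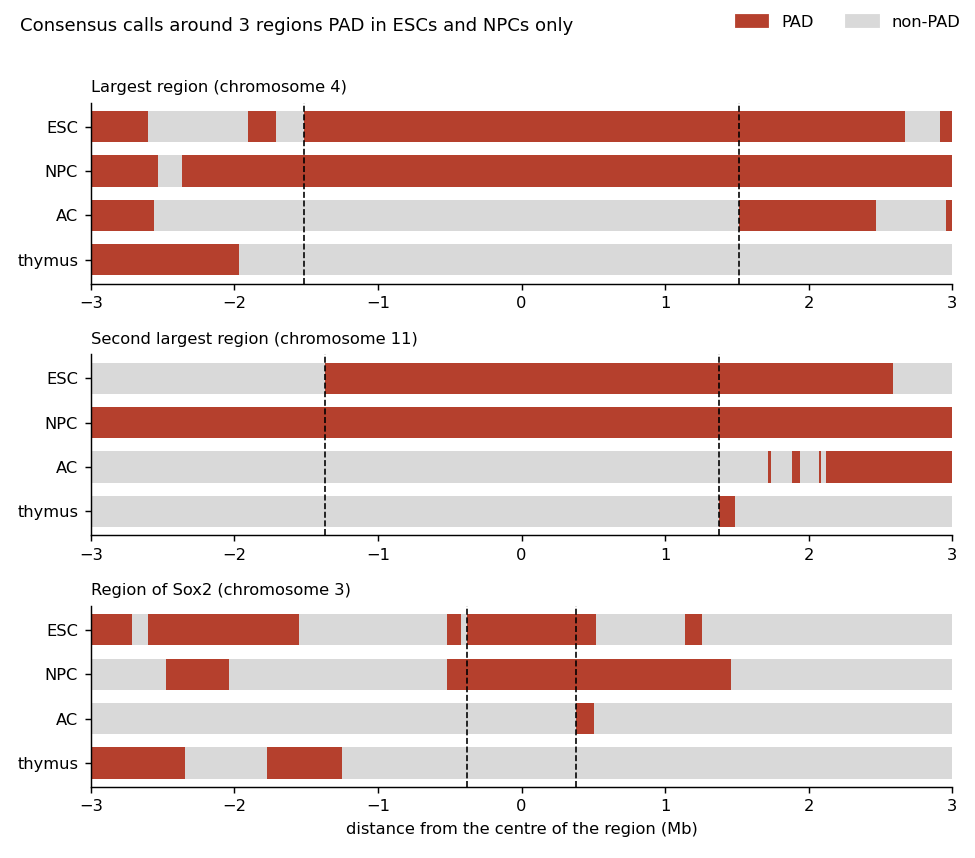
Consensus calls of the 4 cell types over 6 Mb around the largest region, the second largest region and the region of *Sox2*, by distance from the centre of each region in Mb. The dashed lines mark the borders, between which ESCs and NPCs are PAD (red) and ACs and thymus are non-PAD (gray). In all 3 panels the NPC call runs on past both borders.

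The next largest regions differed widely in gene content. A region of 2.11 Mb on Chromosome 7 (chr7:27901587-30008022) held 80 genes, or 38.0 per Mb, at a GC content of 48.4%. Among them were *Mrps12* of the mitochondrial ribosome, *Rps16* of the cytosolic ribosome, and the proteasome genes *Psmc4* and *Psmd8*. A region of nearly the same size on Chromosome 4 (chr4:32296196-34325298, 2.03 Mb) held 17 genes, or 8.38 per Mb, at a GC content of 42.8%. Its longest genes were *Bach2*, a transcriptional repressor of lymphocytes, the mRNA capping enzyme gene *Rngtt*, *Ankrd6* and *Mdn1*, which acts in the assembly of the large ribosomal subunit. On Chromosome 9, a region of 2.02 Mb (chr9:20495780-22519949) held 66 genes at 32.6 per Mb, with the maintenance DNA methyltransferase gene *Dnmt1*, *Mrpl4*, *Zfp599* and *Zfp653*. The remaining 2 of the 8 largest lay on Chromosome 8 (chr8:113141539-114895266, 1.75 Mb, 31 genes, with *Zfp1*, *Glg1*, *Vac14* and *Znrf1*) and on Chromosome 7 (chr7:107532329-109002729, 1.47 Mb, 25 genes, with *Mrpl48*, *Fchsd2*, *Fam168a* and *Clpb*). The 5 regions with the most annotated genes, between 51 and 80 each, were all among the 6 largest.

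The regions were rich in genes. They held the midpoints of 2650 of 21397 autosomal protein-coding genes (12.4%) in 7.35% of the sequence. The share of all autosomal protein-coding genes, 12.4%, is the level against which single gene lists are read. The density was 14.9 genes per Mb, against 8.86 per Mb over all autosomal sequence, and was the highest of the 16 patterns when regions of each pattern were pooled. By chromosome, the density in the regions averaged 14.5 ± 4.55 genes per Mb, against 8.95 ± 2.51 over all called sequence (SD, n = 19 autosomes), and was higher in the regions on 19 of 19. It ranged from 7.68 per Mb on Chromosome 13 to 24.2 per Mb on Chromosome 7. Chromosomes are not replicates, and these values describe the calls without a test.

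The regions were also rich in GC and CpG. Their GC content was 44.5%, against 41.9% over all autosomal sequence, and the number of CpG dinucleotides was 10.7 per kb, against 8.51. Both were higher in the regions on 19 of 19 autosomes, with a mean GC difference of 2.61 percentage points (SD 0.938, n = 19). Protein-coding genes filled 52.9% of the regions and 39.3% of all autosomal sequence. Fragment ends were sparser in the regions, with 142 per Mb against 155 over all autosomal sequence, so that the regions were sampled slightly less densely than the rest.

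Against the most similar patterns, the differences in gene density were smaller than their SD between chromosomes. This SD is a spread, and does not show that the densities were the same. Regions PAD in ESCs only had 11.4 genes per Mb, with a difference of 3.40 ± 5.45 that was positive on 15 of 19. Regions PAD in ESCs, NPCs and ACs had 11.7 per Mb, with a difference of 3.36 ± 4.83 that was positive on 14 of 19. The regions described here also had more genes per Mb than those PAD in NPCs only (14.9 and 13.3). The difference by chromosome averaged 0.765 ± 5.12 and was positive on 13 of 19 (SD, n = 19). Sequence that was non-PAD in all 4 cell types had 12.7 genes per Mb, with a difference of 1.78 ± 3.72 that was positive on 11 of 19. The GC content of the regions and of the sequence that was non-PAD in all cell types, 44.5% and 44.6%, differed by less than the SD over chromosomes and was higher in the regions on 9 of 19. By contrast, the regions were lower in GC than those PAD in NPCs only (45.6%) on all 19 autosomes, and higher than those PAD in ESCs, NPCs and ACs (42.8%) on all 19. Sequence that was PAD in all 4 cell types had lower values, with 4.87 genes per Mb and a GC content of 39.0%.

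**Figure D3:**
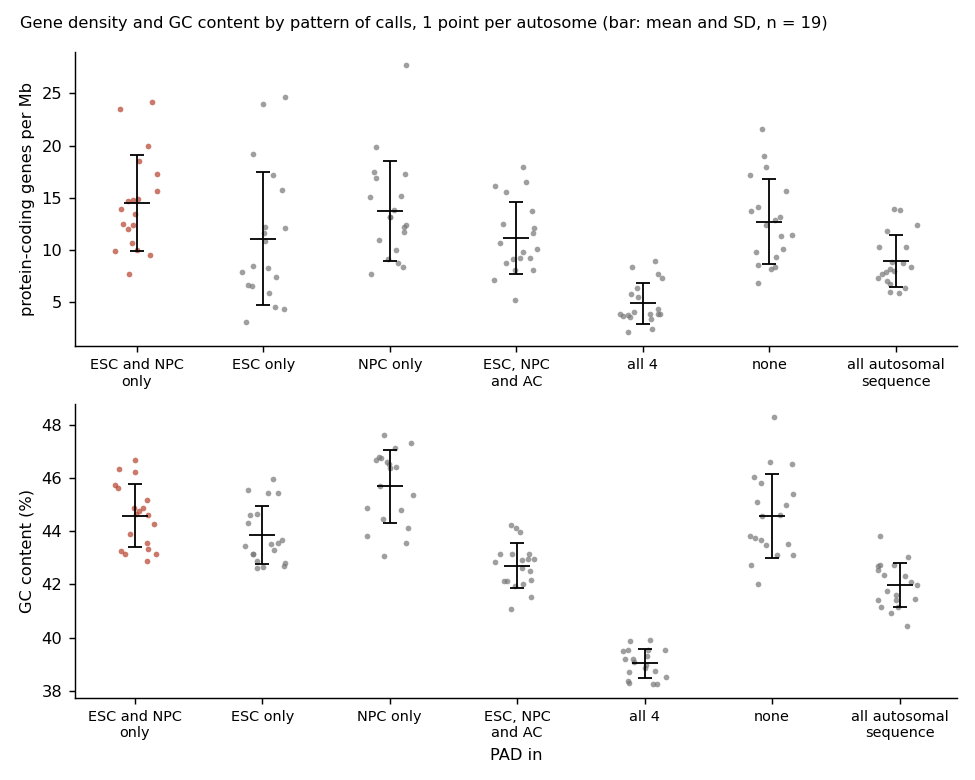
Protein-coding genes per Mb (top) and GC content in percent (bottom) by pattern of calls, with 1 point per autosome and bars for the mean and SD (n = 19). The regions PAD in ESCs and NPCs only (red) average 14.5 genes per Mb, against 8.95 per Mb for all autosomal sequence, and their GC content overlaps that of sequence PAD in none of the cell types.

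Gene content varied strongly among the regions. No protein-coding gene midpoint lay in 297 of the 745 regions, 142 regions held 1 and 306 held at least 2. The 70 regions with 10 or more genes held 59.1% of all 2650 genes. These 70 regions had a median size of 749 kb, 25.3 genes per Mb and a GC content of 46.0%. The 297 regions without a gene were short (median 47.2 kb), made up 12.7% of the sequence and had a GC content of 42.8%. Gene density also went with size, at 7.15 genes per Mb in the 180 regions up to 50 kb and 19.9 per Mb in the 25 regions over 1 Mb. Of the genes, 245 (9.25%) crossed a border of their region. Genes in the regions had a median length of 16.0 kb, close to the 15.4 kb of all autosomal protein-coding genes.

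The regions were spread unevenly over chromosomes, and rather evenly along them only when all autosomes were pooled. On single chromosomes, gaps between successive regions had an upper quartile of 3346 kb and reached 65763 kb. The first and last 10 Mb together held 12.0% of their sequence, with an SD over autosomes of 14.2 percentage points. They covered from 1.36% of Chromosome 12 to 14.2% of Chromosome 11. Chromosome 11 also had the highest share of its genes in them (20.3%). When each chromosome was divided into 5 equal parts, the coverage from the centromere on was 6.08%, 7.46%, 7.27%, 7.95% and 7.99%. The 10 Mb closest to the centromere, counted from the first called end, held 5.07% of the sequence of the regions, against 7.87% of all autosomal sequence. For comparison, the same 10 Mb held 12.0% of the sequence that was PAD in all 4 cell types. The last 10 Mb held 6.93% of the sequence of the regions, against 14.5% of the sequence PAD in NPCs only and 7.87% of all autosomal sequence.

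The calls around the regions show which cell type set each border. The members were chosen by these calls, in which 55.2% of all autosomal fragment ends were PAD for ESCs, 70.3% for NPCs, 54.1% for ACs and 52.4% for thymus. The ESC calls correlated less with the NPC calls (phi coefficient 0.356) than with the AC calls (0.565). For NPC calls, phi was 0.328 with ACs and 0.042 with thymus. Whether this comes from the cells or from the model behind the calls was not tested. Of the 1490 borders, the ESC call changed at 678 (45.5%), the AC call at 513 (34.4%), the NPC call at 194 (13.0%) and the thymus call at 120 (8.05%). The sequence beyond a border was thus most often PAD in NPCs only (666 borders) or PAD in ESCs, NPCs and ACs (506 borders). These patterns were also frequent over all autosomes, with 906 and 793 regions. By comparison, 307 regions were PAD in ESCs, NPCs and thymus, and 279 in ESCs only. The border counts are therefore not read as a trait of the regions. The most frequent arrangement, in 267 regions (35.8%), had sequence PAD in ESCs, NPCs and ACs on one side and sequence PAD in NPCs only on the other. Another 145 regions lay between NPC-only PADs on both sides.

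Set in the domains of single cell types, the regions were usually parts of larger PADs. They lay in 547 of 1246 autosomal ESC PADs, and 150 of these PADs consisted of such a region from end to end. In NPCs they lay in 385 of 1058 PADs, of which 19 consisted of 1 region. Among non-PADs, 449 of 960 in ACs and 299 of 723 in thymus held at least 1 of the regions, and 74 and 13 of these were such a region from end to end.

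Base and gene content fell gradually across the borders. GC content was 45.4% at 300 to 400 kb inside a border, 44.2% in the last 100 kb inside, 43.8% in the first 100 kb outside and 42.5% at 900 to 1000 kb outside. Gene sequence was 55.7%, 50.9%, 49.0% and 41.3% in the same windows. Only regions over 600 kb reach 300 kb inside, so that the innermost windows come from the largest regions.

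**Figure D4:**
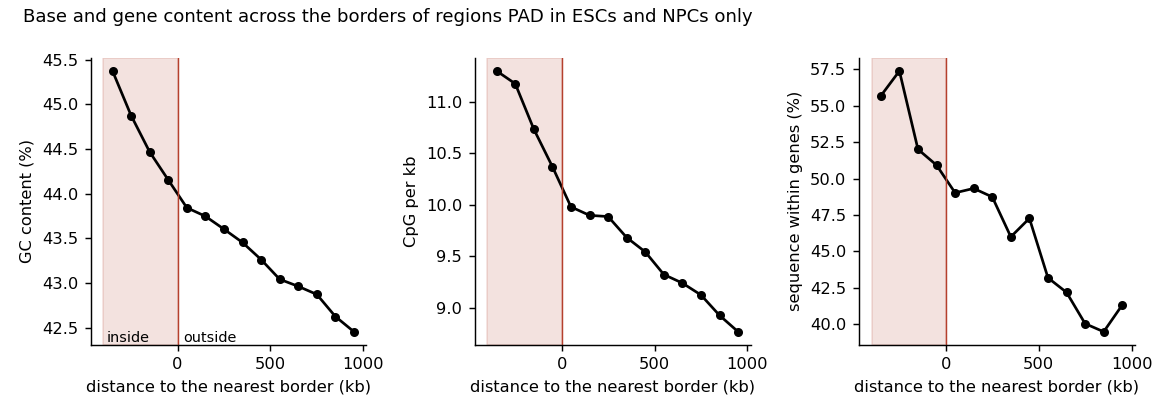
GC content (%), CpG dinucleotides per kb and sequence within protein-coding genes (%) in 20-kb windows, by distance in kb to the nearest border of a region PAD in ESCs and NPCs only, with inside (shaded) at negative distances. All 3 values are higher inside than at 900 to 1000 kb outside, and GC content falls with distance without a sharp step at the border.

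Genes for heterochromatin proteins were in the regions at 7 of 26, against 12.4% of all genes. They were *Cbx5*, which encodes HP1 alpha, *Dnmt1*, the histone H3 lysine 9 methyltransferase genes *Ehmt2* and *Setdb1*, the methyl-CpG binding protein gene *Mbd2*, the histone H4 lysine 20 methyltransferase gene *Suv420h2* and *Uhrf1*, the partner of *Dnmt1* in maintenance methylation. The 7 genes lay in 7 different regions on 6 chromosomes, and none crossed a border. Placed by their transcription start, 9 of the 26 were in the regions. Regions PAD in NPCs only held another 9 of the 26 by midpoint, beside 24.4% of all genes. *Ehmt2* lay in a region of 495 kb in the major histocompatibility complex on Chromosome 17 (chr17:34954053-35449340), which held 50 genes.

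Among 20 genes of pluripotency, 4 (20%) were in the regions, against 12.4% of all genes and without a test. Regions PAD in NPCs only held 4 others, beside 24.4% of all genes. *Sox2*, a transcription factor of both ESCs and neural precursors, was the only protein-coding gene of a 764-kb region on Chromosome 3 (chr3:34254261-35017809, 124 ends, GC content 44.1%). *Tcfcp2l1*, a transcription factor of naive ESCs, was likewise alone in a region of 256 kb (chr1:120460580-120716191). *Klf5* was in a region of 295 kb with 5 genes, and the growth factor gene *Fgf4* in a region of 166.0 kb with 3 genes. From the 17 placed genes of neural precursors, *Hes1*, an effector of Notch signaling, and *Sox2* were in the regions. This share, 11.8%, was near the 12.4% of all genes.

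The promoter windows of *Sox2* and *Aldoc* are shown because these genes mark an ESC and NPC factor and an astrocyte enzyme with the same calls. They run from 250 bases before to 50 bases after a transcription start in RefSeq (GRCm38.p6), with CpG dinucleotides in capitals.
*Sox2*, Chromosome 3, plus strand, chr3:34649745-34650044: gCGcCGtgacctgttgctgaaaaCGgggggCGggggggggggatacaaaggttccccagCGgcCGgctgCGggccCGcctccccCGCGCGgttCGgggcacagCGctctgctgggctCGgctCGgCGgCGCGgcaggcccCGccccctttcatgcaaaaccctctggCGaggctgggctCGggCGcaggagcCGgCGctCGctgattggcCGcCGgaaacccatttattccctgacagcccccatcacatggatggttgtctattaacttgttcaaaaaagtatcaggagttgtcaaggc
*Aldoc*, Chromosome 11, plus strand, chr11:78322823-78323122: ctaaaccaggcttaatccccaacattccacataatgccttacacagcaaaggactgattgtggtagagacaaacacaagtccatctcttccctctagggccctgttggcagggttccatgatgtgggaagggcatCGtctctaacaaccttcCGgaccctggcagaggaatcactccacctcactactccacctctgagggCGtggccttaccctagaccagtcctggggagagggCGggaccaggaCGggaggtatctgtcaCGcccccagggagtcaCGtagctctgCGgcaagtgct
The *Sox2* window held 27 CpG dinucleotides and that of *Aldoc*, at the first of its 2 listed starts, held 8. Neither promoter stands for the regions as a whole. No comparison of promoters between the regions and all autosomal genes is given, since only 68.2% of the genes in the regions and 66.8% of all were matched by symbol.

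Astrocyte genes were in the regions at 5 of 18. Apart from *Aldoc*, these were the folate enzyme gene *Aldh1l1*, the water channel gene *Aqp4*, the connexin gene *Gjb6* and the glutamine synthetase gene *Glul*. *Glul* lay well inside a region of 1103 kb on Chromosome 1 (chr1:155001130-156103798, 181 ends). *Aqp4*, in contrast, crossed the border of a region of 31.0 kb on Chromosome 18 that rested on 3 fragment ends. Placed by transcription start, 4 of the 18 were in the regions. Regions PAD in NPCs only held another 5 of the 18 by midpoint, beside 24.4% of all genes. Of 19 neuronal genes, 2 (10.5%) were in the regions, the NMDA receptor gene *Grin1* and the postsynaptic scaffold gene *Dlg4*, which crossed a border. Of 23 T cell genes, 3 (13.0%) were in the regions, namely the co-receptor gene *Cd4*, *Cd5* and the transcription factor gene *Lef1*. The neuronal and T cell shares were near the 12.4% of all genes.

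*Cd4* lay in a region of 48 genes on Chromosome 6 (chr6:124271972-125408040, 1136 kb), together with *Gapdh*, an enzyme of glycolysis in all cells. *Gapdh* and *Gusb* were the 2 of 18 housekeeping genes in the regions (11.1%, near the 12.4% of all genes). Of 31 genes of DNA replication, 3 (9.68%) were in the regions (*Cdc45*, *Mcm6* and *Rfc1*).

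Genes of large ubiquitous complexes were scattered over many regions. Of 78 genes of the cytosolic ribosome, 14 (17.9%) were in 14 regions on 9 chromosomes, among them *Rpl13*, *Rpl22l1*, *Rpl23a*, *Rpl26*, *Rpl28* and *Rpl32*. Of 76 genes of the mitochondrial ribosome, 15 (19.7%) were in 15 regions on 12 chromosomes, and of 49 proteasome genes, 9 (18.4%) were in 7 regions. These shares are read against 12.4% of all genes, without a test. Regions PAD in NPCs only, with 24.4% of all genes, held 25, 22 and 15 genes of the same 3 lists.

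Gene families differed in how they lay in the regions. All 9 *Hoxc* genes in the list lay in 1 region on Chromosome 15 (chr15:102443287-103283935, 841 kb, 22 genes), which also held *Cbx5*, whereas none of the *Hox* genes of the other clusters did. Of 51 keratin genes, 7 were in the regions (13.7%, near the 12.4% of all genes). They were in 1 region of 300.4 kb on the same chromosome (chr15:101688862-101989248), which held *Krt18*, a keratin of simple epithelia, and *Krt4*, *Krt76*, *Krt77*, *Krt78* and *Krt79*. Of 357 zinc finger genes, 55 (15.4%) were in 26 regions, with 7 in the region of 2.11 Mb on Chromosome 7 and 6 in another on the same chromosome. Of 1106 olfactory receptor genes, 19 (1.72%) were in 7 regions, and 6 of these were in 1 region on Chromosome 11. Of 327 vomeronasal receptor genes, 2 were in the regions, and none of 34 protocadherin or 67 clustered histone genes was.

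**Figure D5:**
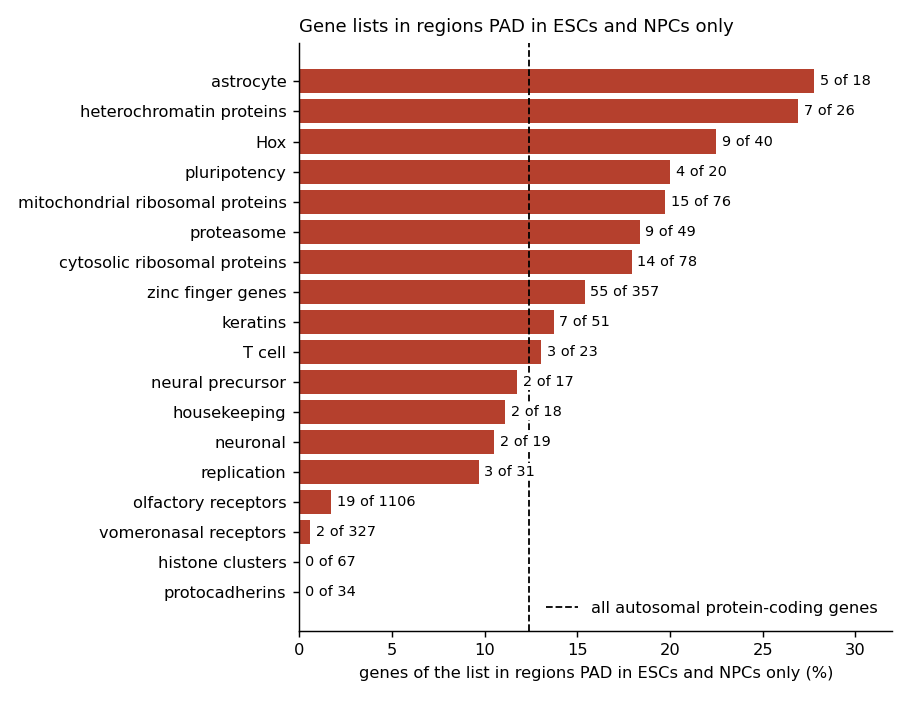
Percentage of the genes of 18 lists that lay in regions PAD in ESCs and NPCs only, with the number of genes in the regions and in the list. The dashed line marks 12.4%, the share of all autosomal protein-coding genes, and the bars run from 5 of 18 astrocyte genes to 0 of 34 protocadherins.

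MicroRNA genes show how a single region can set a share. Of 1468 autosomal microRNA genes, 261 (17.8%) were in the regions. Of these, 119 lay in 1 region on Chromosome 2 (chr2:10274760-10688023, 413 kb), which was named after its value was seen. They all lay within *Sfmbt2*, a Polycomb group gene, over a stretch of 53.0 kb, and 73 carried names that begin with Mir297, Mir466, Mir467 or Mir669. The families of these names consist of near-identical copies, and their number depends on the annotation. Without this region, 142 of 1349 microRNA genes (10.5%) were in the regions, below the 12.4% of protein-coding genes. The region with the next most microRNA genes held 5.

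Of 113 member microRNA genes with a Mir name, 40 were matched to mature sequences in RefSeq (GRCm38.p6), and 1 seed of the 62 in these matched sequences was found in more than 1 region. The unmatched microRNA genes were not compared by seed. It is the seed of the miR-15 and miR-16 family, whose members are known to repress regulators of the cell cycle. The mature sequences are shown with the seed, bases 2 to 8, in capitals.
mmu-miR-15b-5p: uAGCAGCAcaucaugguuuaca
mmu-miR-16-5p: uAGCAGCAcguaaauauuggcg
mmu-miR-195a-5p: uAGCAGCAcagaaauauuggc
mmu-miR-497a-5p: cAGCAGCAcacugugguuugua
*Mir15b* and *Mir16-2* lay in a region of 156 kb on Chromosome 3 (chr3:68696533-68852931), and *Mir195* and *Mir497* in a region of 403 kb on Chromosome 11 (chr11:69923517-70326033). These genes were named after the seeds had been compared.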

How the data were processed

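The measured values were sat4C calls, and the unit is a word: the deposited file gives PAD or nPAD for each fragment end and cell type, as a category of another kind than counts. Per the study's methods, the authors mapped reads to the ends of fragments of a reduced mm9 genome without Chromosome Y, with an aligner not given in the sources used here. They binned the reads per end in 5 classes, fitted a hidden semi-Markov model with 2 states to each replicate with mhsmm in R, and took a majority vote over replicates, with ties decided by a pooled virtual replicate. The model smooths calls along the chromosome, so that borders depend on it and short regions rest on few ends. The number of other per-sample columns was 0.

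Of the fragment ends, 97.8% had a recognition site of MfeI or NlaIII at the listed position in NCBIM37, the assembly behind mm9. Regions were built as stated in the text. Genes were those of GENCODE vM1, placed by the midpoint of the longest transcript, of which 21397 were in called autosomal sequence and 21 lay outside it. The members and the gene lists were chosen with earlier results of these data known. Named were the 8 largest regions and the 5 with the most genes, with up to 4 genes each (listed genes first, then the longest), and up to 6 genes per list in alphabetical order. The microRNAs and *Sfmbt2* were named outside this rule. All comparisons are descriptions over chromosomes, without a p-value. The procedure was tested on simulated calls. Python 3.11.15 with numpy 2.4.6, pandas 2.3.3, pysam 0.24.0 and matplotlib 3.10.9 was used. Expression, lamina association, DNase sensitivity and repeats were not analysed here.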

Additional observations from a re-analysis of the deposited data

How the results depend on the processing

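Of 64 alternative values, 59 stayed within a set limit of the reported value and 5 moved further. The limit was 1.5 times for counts and 1 SD between chromosomes for other values. This SD does not measure sensitivity to processing. For the share in the first and last 10 Mb it was 14.2 percentage points on a value of 12.0%, so that no fall could pass it. The gene share of 7.78% given next also stayed within its SD of 4.96 percentage points. Leaving out fragment ends within 10 ends of a change of call, an alternative chosen after seeing the data, left 366 regions, 4.28% of the autosomal sequence, a median size of 163 kb and 7.78% of protein-coding genes, against the 12.4% with which the gene lists are compared. Leaving out regions under 5 ends gave a median of 167 kb. Counting genes of all types gave 23.2 genes per Mb in the regions, against 14.3 over all autosomal sequence. Over the other alternatives, the density of protein-coding genes was 13.6 to 16.8 per Mb and the GC content 43.9% to 44.7%. Dropping the thymus call gave 937 regions, and dropping the NPC call gave 840. No paired analysis was possible because the calls hold 1 consensus per cell type and no columns of replicates, and leaving out a replicate was not possible for the same reason. Depth is unknown, and regions of few fragment ends have the least certain borders.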

Other observations

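On Chromosome X, which was left out of the regions, 1191 of 24690 fragment ends (4.82%) were PAD in ESCs and NPCs only. They formed 49 regions of 6.81 Mb in all, with a median size of 95.5 kb and 70 protein-coding genes. In the autosomal regions, the shares of other gene classes are given without a test, beside 12.4% of protein-coding genes. Of 1231 lincRNA genes, 148 (12.0%) were in the regions, a share close to that of protein-coding genes, and of 4045 pseudogenes, 330 (8.16%). None of 355 immunoglobulin V gene segments was.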
